A study of Mus musculus with 27 samples.

Results

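Zfp is the mouse symbol for zinc finger protein, and the genes described here are the expressed Zfp genes of mouse embryonic stem cells, the pluripotent cells that self-renew in culture. They were taken from the deposited RNA table as the protein-coding rows whose symbol is Zfp followed by a number, with a mean of at least 1 FPKM over the 4 RNA libraries. FPKM is the fragment count per kilobase of transcript, on the spike-in scale that the title of the authors' table names. This gave 279 genes of 350 such coding rows. The table holds 38582 genes, of which 12452 reached the same mean and 10669 of those are coding. Below the minimum stood 69 rows, and Zfp42 and Zfp352 were left out by name, the first a pluripotency marker known as Rex1. The genes were chosen by their mean level, so the levels themselves are given as a description. Just above the minimum stood Zfp563 with a mean of 1.0 FPKM and Zfp28 and Zfp426 with 1.075 FPKM each. Just below it stood Zfp235, Zfp748 and Zfp287, each with a mean of 0.975 FPKM.

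The study depleted WDR43, a WD-repeat protein of the nucleolus that takes part in ribosomal RNA processing, in ES cells of wild-type genotype grown in serum and LIF. RNA was sequenced in 2 libraries with a short hairpin RNA against WDR43 (shWDR43) and in 2 with a control hairpin (shCtl). Cells with these hairpins also gave 12 ChIP-seq peak lists, 2 per group for each of 3 forms of RNA polymerase II (Pol II): hypoP, the hypophosphorylated form, Ser5P, phosphorylated on serine 5 as near gene starts, and Ser2P, phosphorylated on serine 2 as in elongating Pol II. WDR43 itself was mapped with a FLAG antibody in 1 library each of cells carrying Fbio-tagged WDR43 and treated with DRB, an inhibitor of Pol II pause release, with actinomycin D (ActD), which blocks transcription, or with the solvent DMSO. Cells with an FB tag and cells with a cFB knock-in gave 1 WDR43 library each. The sources used here name neither the ES cell line nor the hairpin sequences nor the time after knockdown. The file header calls the RNA libraries biological replicates. For ChIP the labels do not say what the numbers 1 and 2 stand for, so their spread may be technical.

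Most Zfp genes encode proteins with arrays of C2H2 zinc fingers, in which each finger reads a few bases of DNA. Many of these proteins also carry a KRAB domain, which recruits the corepressor TRIM28 and with it the histone methyltransferase SETDB1 and HP1 proteins, and in ES cells this machinery silences retroelements and protects imprinted methylation. KRAB zinc finger genes arose by tandem duplication and lie in clusters along the chromosomes. Other genes with a Zfp symbol encode RNA-binding proteins, ribosome assembly factors or general transcription factors.

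WDR43 and hypophosphorylated Pol II peaks stood at the annotated starts of most of these genes, so promoters were read from RefSeq on GRCm38.p6, 250 bases before to 50 bases after each start. A promoter was found for 231 of the 279 genes, 285 promoters in all. Both strands were searched for 7 motifs, none of which contains another. The motif of ETS factors is CCGGAAG, and that of NRF1 is GCATGCGC. YY1 has the letters AAGATGGCG, and ZFP143 has ACTACAATT. The nuclear factor Y (NFY) motif is CCAAT. The TATA box was read in the form TATAAA. The motif of SP factors is GGGCGG. Shown first are promoters of a pair of genes whose RNA was higher in shWDR43 and of the pair with the largest falls. The last 4 hold the ZFP143 motif, and Zfp180, Zfp111 and Zfp93 are neighbours in 1 chromosome 7 cluster. Each is printed 5′ to 3′ on the strand of the gene, and capitals mark the motif letters found. The Zfp385a and Zfp111 genes have a second annotated start, and the upstream one is shown.
Zfp365 (chr10:67912613-67912912, minus strand): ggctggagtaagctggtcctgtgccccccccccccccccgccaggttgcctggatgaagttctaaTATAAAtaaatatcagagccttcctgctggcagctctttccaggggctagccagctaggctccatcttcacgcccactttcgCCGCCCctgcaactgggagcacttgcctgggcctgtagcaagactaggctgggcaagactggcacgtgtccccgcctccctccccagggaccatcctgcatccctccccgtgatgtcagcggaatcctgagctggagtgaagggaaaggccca
Zfp385a (chr15:103340037-103340336, minus strand): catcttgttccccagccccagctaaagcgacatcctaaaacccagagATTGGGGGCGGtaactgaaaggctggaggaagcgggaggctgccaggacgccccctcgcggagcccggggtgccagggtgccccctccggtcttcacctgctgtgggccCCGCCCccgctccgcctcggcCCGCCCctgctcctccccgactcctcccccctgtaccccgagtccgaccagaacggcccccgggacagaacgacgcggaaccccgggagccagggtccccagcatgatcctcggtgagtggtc
Zfp459 (chr13:67421369-67421668, minus strand): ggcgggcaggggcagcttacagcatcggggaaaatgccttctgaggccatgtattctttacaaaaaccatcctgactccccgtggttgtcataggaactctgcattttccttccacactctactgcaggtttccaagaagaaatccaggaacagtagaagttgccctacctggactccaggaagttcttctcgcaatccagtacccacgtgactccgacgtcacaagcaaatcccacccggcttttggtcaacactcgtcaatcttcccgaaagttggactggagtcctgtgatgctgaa
Zfp428 (chr7:24506837-24507136, plus strand): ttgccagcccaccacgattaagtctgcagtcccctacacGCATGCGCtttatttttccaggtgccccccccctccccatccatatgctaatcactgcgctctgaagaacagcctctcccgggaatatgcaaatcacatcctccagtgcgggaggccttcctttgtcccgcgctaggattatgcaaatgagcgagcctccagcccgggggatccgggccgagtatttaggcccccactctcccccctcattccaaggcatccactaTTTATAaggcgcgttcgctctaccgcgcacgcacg
Zfp180 (chr7:24081647-24081946, plus strand): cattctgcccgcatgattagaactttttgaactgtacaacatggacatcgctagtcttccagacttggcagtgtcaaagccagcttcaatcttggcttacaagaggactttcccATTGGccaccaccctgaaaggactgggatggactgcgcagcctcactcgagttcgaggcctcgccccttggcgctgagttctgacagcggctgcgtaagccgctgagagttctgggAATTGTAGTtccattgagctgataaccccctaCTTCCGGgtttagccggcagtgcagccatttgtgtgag
Zfp111 (chr7:24208100-24208399, minus strand): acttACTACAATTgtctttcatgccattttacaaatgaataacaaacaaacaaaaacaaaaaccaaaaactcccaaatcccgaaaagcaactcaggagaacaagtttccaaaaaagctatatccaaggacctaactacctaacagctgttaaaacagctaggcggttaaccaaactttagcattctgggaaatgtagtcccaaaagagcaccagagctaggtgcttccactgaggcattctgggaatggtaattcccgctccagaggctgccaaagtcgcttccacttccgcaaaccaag
Zfp93 (chr7:24270168-24270467, plus strand): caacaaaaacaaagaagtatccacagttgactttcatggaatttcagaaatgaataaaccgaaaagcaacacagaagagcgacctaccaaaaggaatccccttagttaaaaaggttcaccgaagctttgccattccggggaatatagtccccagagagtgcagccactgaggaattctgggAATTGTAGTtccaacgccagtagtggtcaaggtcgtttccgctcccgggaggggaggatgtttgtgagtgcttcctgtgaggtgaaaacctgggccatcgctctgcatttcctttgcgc
Zfp1 (chr8:111643193-111643492, plus strand): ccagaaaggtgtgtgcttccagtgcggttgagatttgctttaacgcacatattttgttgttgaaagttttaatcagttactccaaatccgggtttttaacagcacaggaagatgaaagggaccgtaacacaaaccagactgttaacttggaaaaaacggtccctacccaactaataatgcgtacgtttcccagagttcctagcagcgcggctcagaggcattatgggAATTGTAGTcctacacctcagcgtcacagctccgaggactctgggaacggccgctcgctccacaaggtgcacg

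The letters of the ZFP143 motif stood in 9 of the 285 Zfp promoters, or 3.16%, against 0.81% of the 11025 promoters of fitted coding genes and 0.39% of all 32851 promoters in the table. Zfp143 encodes the factor that binds this motif and is itself one of the genes described here. The 9 promoters belong to Zfp933, Zfp180, Zfp111, Zfp93, Zfp1, Zfp692, Zfp58 and, with 2 promoters, Zfp454. Of these 8 genes Zfp180, Zfp111, Zfp1 and Zfp454 had lower RNA in shWDR43 (adjusted p from 0.005509 to 0.03612 by limma), near the 42.7% of all fitted genes that fell, and the other 4 did not pass the threshold. After centring Zfp1 and Zfp454 passed, and Zfp180 (adjusted p = 0.4575 by limma) and Zfp111 (adjusted p = 0.1221 by limma) did not. The NFY motif was in 47.02% of Zfp promoters and 38.34% of coding promoters, and the SP motif was in 45.61% and 65.14%. For the other motifs the shares in Zfp and coding promoters were 21.4% and 18.75% (ETS), 8.07% and 6.79% (TATA), 5.26% and 5.69% (NRF1) and 3.16% and 3.29% (YY1). The median Zfp promoter held 15 CpG dinucleotides, against 21 for coding promoters and 7 for all promoters. These shares have no test, and clustered Zfp genes share ancestry, so their promoters are not independent.

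The RNA of Wdr43 was 21.2 and 20.7 FPKM in the shWDR43 libraries, against 82.3 and 78.2 FPKM in the shCtl libraries (-1.89 ± 0.12 on the log2 scale, SE). The stem cell factor Pou5f1 stood at 554.0 and 459.1 FPKM in shWDR43, against 1038.4 and 1056.5 FPKM in shCtl, so the label of ES cells is borne out by its defining marker in all 4 libraries. Of the 6 feeder fibroblast markers Postn was at 0.1 FPKM or less, Col3a1 at 0.7 FPKM or less and Twist1 at 1.5 FPKM or less everywhere. Col1a1 had 17.9 and 30.9 FPKM in shWDR43 and 12.3 and 18.4 FPKM in shCtl, Col1a2 had 16.4 and 28.8 FPKM in shWDR43 and 12.9 and 16.1 FPKM in shCtl, and Thy1 had 1.0 and 1.2 FPKM in shWDR43 and 3.6 and 5.2 FPKM in shCtl. Of the 4 extraembryonic endoderm markers Gata4, Gata6 and Sox17 were higher in both shWDR43 libraries (Gata4 at 1.6 and 2.2 FPKM, against 1.2 and 1.0 FPKM in shCtl), while Sox7 had 0.3 and 0.4 FPKM in shWDR43 and 0.8 and 1.2 FPKM in shCtl. Their part in the results was not tested. In these bulk samples fewer cells of a type and less RNA per cell cannot be told apart. The summed FPKM of the whole table was 687051 and 681178 in shWDR43, against 1015232 and 1040749 in shCtl. Read depth is unknown, since the table gives no counts.

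Zfp genes were mostly low. Their median mean level was 4.075 FPKM and 57.71% lay below 5 FPKM, against a median of 8.1 FPKM and 36.61% for all 12452 fitted genes. The range ran to 170.525 FPKM for Zfp57, and 23 genes averaged at least 20 FPKM. None was listed at 0 in any library. Summed over the 279 genes the level was 1911.5 and 1691.2 FPKM in shWDR43, against 2983.3 and 2626.9 FPKM in shCtl. Both shWDR43 sums lay below both shCtl sums. As a share of the whole table the sums were 0.278% and 0.248% in shWDR43, against 0.294% and 0.252% in shCtl, and these shares overlapped between the groups.

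On the spike-in scale most Zfp genes had less RNA in shWDR43, and the share that fell was close to that of all fitted genes. By limma on log2(FPKM + 1), a scale that understates the change of low genes, with Benjamini-Hochberg adjustment over all fitted genes and a threshold of 0.05, 117 of 279 fell (41.94%, where 42.7% of all fitted genes fell) and 5 rose (1.79%, where 6.1% of all fitted genes rose). The other 157 did not pass the threshold. The median log2 fold change was -0.44, against -0.39 for all fitted genes, and 249 Zfp genes (89.25%) were below 0, against 78.13% of all fitted genes. Both shWDR43 libraries lay below both shCtl libraries for 200 Zfp genes (71.68%, where the rate for all fitted genes was 63.6%) and above both for 12 (4.3%, against 12.6%). The difference between the Zfp genes and the rest has no test here. Single libraries of 1 group differed too, with a Zfp median of -0.13 between shWDR43 libraries 2 and 1 and of -0.17 between shCtl libraries 2 and 1 on the log2 scale. The medians of the 4 shWDR43 minus shCtl library differences ran between -0.57 and -0.29. Against shCtl library 1 the Zfp medians were -0.42 and -0.57, below the -0.38 and -0.48 of all fitted genes. Against shCtl library 2 they were -0.29 and -0.40, above the -0.31 and -0.42 of all fitted genes. Without shCtl library 1 the Zfp median log2 fold change was -0.34, against -0.36 for all fitted genes. The order of the Zfp median and that of all genes thus depended on the shCtl library.

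Each library was also centred on its own median, which moved every gene up by 0.33 on the log2 scale. After centring 39 Zfp genes fell (13.98%, where 20.9% of all fitted genes fell) and 11 rose (3.94%, where 13.0% rose). Both Zfp shares were below those of all fitted genes. The share of falls among the Zfp calls was then 78.0%, against 95.9% on the spike-in scale. The Zfp median was -0.11, against -0.06 for all fitted genes. Leaving out any 1 library left 1 group with a single library, which is assumed to vary like the other group, and ended every call by limma, for all genes as for the Zfp genes. At an unadjusted p under 0.05 these fits gave 55 to 114 falls and 3 to 5 rises, and all 122 called genes kept their sign. Fitting all 38582 rows with no filter left 5 falls and 1 rise, that of Zfp385a, with 110 falls and 5 rises at an unadjusted p under 0.05.

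The Zfp genes were low, and falls were more frequent at higher levels. When all fitted genes were split into 5 bins of mean level, the Zfp median log2 fold changes from the lowest to the highest bin were -0.20, -0.41, -0.51, -0.66 and -0.71, against -0.15, -0.24, -0.36, -0.49 and -0.71 for all genes. The shares of Zfp genes that fell in these bins were 17.33%, 33.33%, 61.22%, 69.05% and 85.71%, against 13.67%, 26.41%, 39.36%, 56.08% and 78.41% of all genes. The lowest 2 bins held 75 and 99 of the Zfp genes and the highest held 14. In each bin the Zfp share was above that of all genes, with the Zfp genes themselves counted among all genes. The bins use log2(FPKM + 1), which understates the change of low genes, and were not run with a smaller pseudocount.

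**Figure D1:**
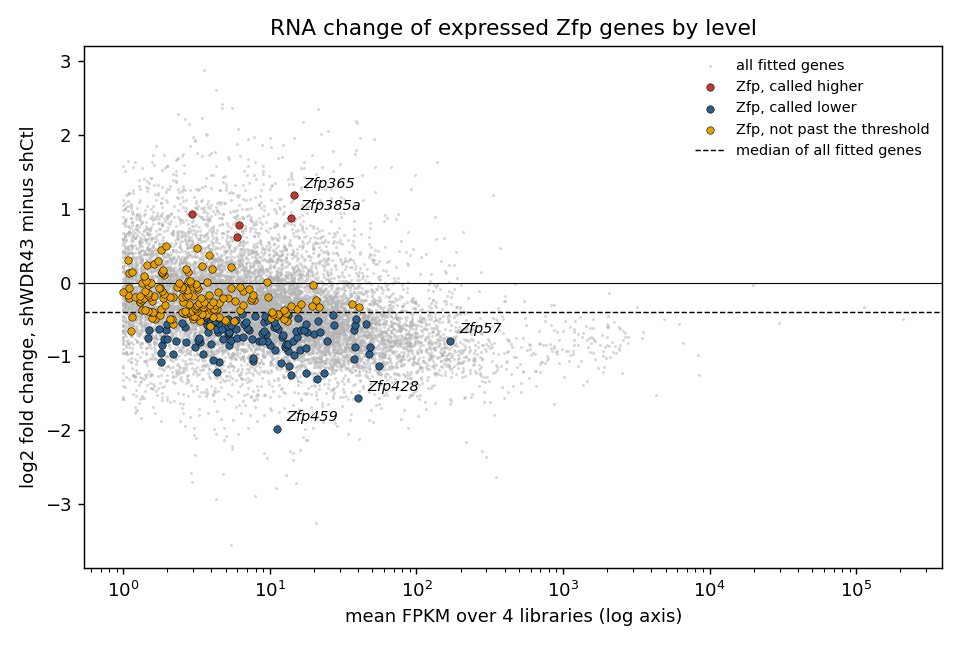
Log2 fold change of shWDR43 minus shCtl against mean FPKM over the 4 libraries (log axis) for all 12452 fitted genes (grey) and the 279 Zfp genes, coloured by call. The 117 Zfp falls (blue) lie below the dashed line, the median of all fitted genes, and the 5 rises (red) stand above 0.

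The 5 rises were Zfp365, Zfp362, Zfp385a, Zfp750 and Zfp688, and they remained among the 11 rises after centring. Zfp365 (mm9 chr10:67348853-67375410) had 21.9 and 19.8 FPKM in shWDR43, against 9.4 and 7.8 FPKM in shCtl. Its groups did not overlap, and its log2 fold change of 1.19 ± 0.15 (SE, n = 2 each, adjusted p = 0.001754 by limma) was the highest of the 279. The human counterpart, ZNF365, is known for roles in genome stability. Zfp362 (chr4:128450329-128483356) had 4.3 and 4.0 FPKM in shWDR43 and 2.2 and 1.3 FPKM in shCtl, 0.92 ± 0.21 on the log2 scale (SE, adjusted p = 0.01079 by limma). Zfp385a (chr15:103144326-103170517), which encodes a p53 cofactor that also binds mRNA, had 18.9 and 18.0 FPKM in shWDR43 and 9.4 and 9.7 FPKM in shCtl. Its log2 fold change was 0.88 ± 0.13 (SE, adjusted p = 0.002567 by limma), and its replicates differed by less than 1 FPKM.

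Zfp750 (chr11:121372290-121380656), a factor of epidermal differentiation, had 9.0 and 7.1 FPKM in shWDR43 and 4.4 and 4.1 FPKM in shCtl, 0.78 ± 0.16 on the log2 scale (SE, adjusted p = 0.007855 by limma). Its locus overlaps that of Tbcd and the counting is not stated to use strand, so reads of the pair cannot be told apart. Zfp688 (chr7:134562480-134565548) had 7.7 and 7.1 FPKM in shWDR43 and 5.6 and 3.5 FPKM in shCtl. Its groups did not overlap but the shCtl libraries differed from each other by more than the gap between the groups. Its log2 fold change was 0.62 ± 0.20 (SE), its adjusted p was 0.03955 by limma, and it did not pass without the intensity trend. In the authors' deposited table, Zfp genes that were at least 1.5-fold lower with an unadjusted p under 0.05 numbered 76, and 6 were at least 1.5-fold higher. The 6 in the authors' deposited table were Zfp365, Zfp362, Zfp385a, Zfp750, Zfp319 and Zfp28.

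The largest fall was that of Zfp459 (chr13:67506650-67522354), with 4.3 and 3.6 FPKM in shWDR43, against 20.9 and 16.3 FPKM in shCtl. The log2 fold change was -1.98 ± 0.17 (SE, adjusted p = 0.001021 by limma). Zfp459 lies in the chromosome 13 cluster known for the Regulator of sex-limitation genes, KRAB repressors of male-biased liver genes. Zfp428 (chr7:25292106-25300701) had 20.3 and 19.2 FPKM in shWDR43 and 57.3 and 64.0 FPKM in shCtl, -1.57 ± 0.13 on the log2 scale (SE, adjusted p = 0.001021 by limma). Its lowest shCtl value was above its highest shWDR43 value by more than the spread within either group.

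Zfp808 had 12.5 and 10.5 FPKM in shWDR43 and 38.0 and 23.2 FPKM in shCtl (log2 fold change -1.30 ± 0.23, SE). Zfp105 had 10.1 and 5.9 FPKM in shWDR43 and 21.0 and 18.9 FPKM in shCtl (-1.26 ± 0.23 on the log2 scale, SE). Zfp532, whose product is bound by the chromatin reader ZMYND8, had 15.3 and 12.2 FPKM in shWDR43 and 34.7 and 32.1 FPKM in shCtl (-1.23 ± 0.15 on the log2 scale, SE). The groups were apart for all 3 of these genes, with the widest replicate gap in the shCtl libraries of Zfp808. Zfp518a had 11.0 and 8.9 FPKM in shWDR43 and 30.7 and 19.5 FPKM in shCtl, and its paralog Zfp518b had 9.0 and 7.3 FPKM in shWDR43 and 20.3 and 17.7 FPKM in shCtl. The human counterpart ZNF518B is known to bind the histone methyltransferase G9a. Zfp819 had 2.8 and 1.7 FPKM in shWDR43 and 6.2 and 6.7 FPKM in shCtl, and Zfp930 had 7.8 and 6.7 FPKM in shWDR43 and 19.4 and 14 FPKM in shCtl. The adjusted p of these 7 genes ran between 0.001742 and 0.005128 by limma.

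**Figure D2:**
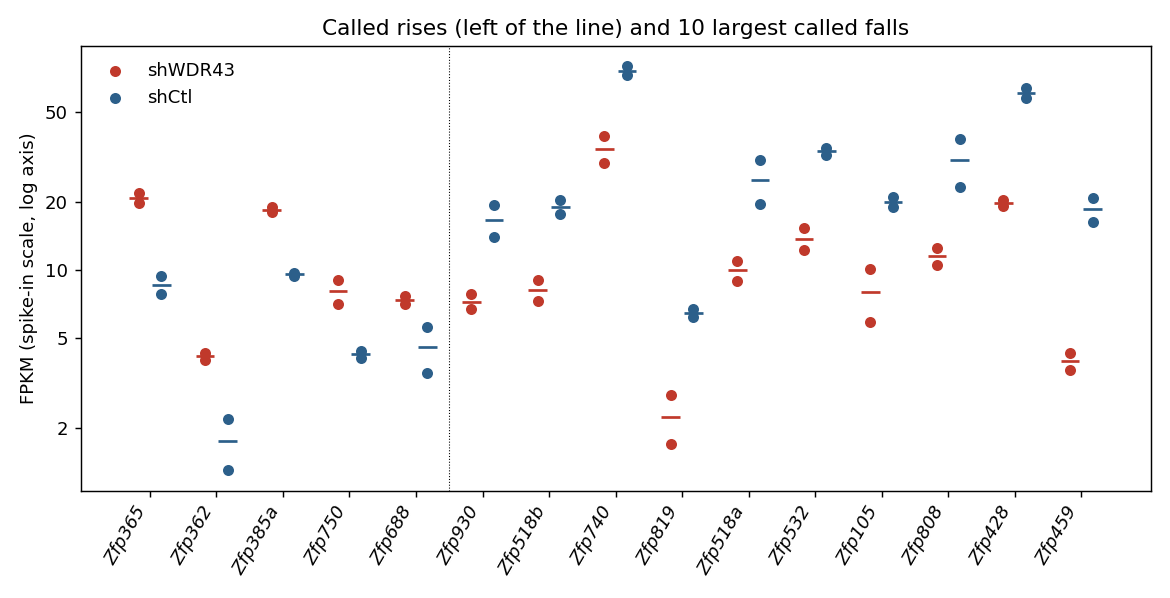
FPKM on the spike-in scale (log axis) of the 5 Zfp genes that rose (left of the dotted line) and the 10 with the largest falls, with shWDR43 libraries in red and shCtl libraries in blue, 2 points per group and a bar at the group mean. In all 15 genes the shWDR43 points lie on 1 side of the shCtl points, and Zfp459 at the right has the widest gap, 4.3 and 3.6 FPKM against 20.9 and 16.3 FPKM.

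The 5 most abundant of the 279 genes all fell, as did 78.41% of all fitted genes in the highest bin of level. Zfp57 (chr17:37138108-37147674), the KRAB protein that keeps DNA methylation at imprinting control regions, had 126.9 and 122.8 FPKM in shWDR43, against 216.3 and 216.1 FPKM in shCtl. Its log2 fold change was -0.79 ± 0.11 (SE, adjusted p = 0.002233 by limma), with tight replicates in both groups. Zfp740 had 39.2 and 29.6 FPKM in shWDR43 and 79.6 and 72.5 FPKM in shCtl, a log2 fold change of -1.13 ± 0.16 (SE). Zfp534 had 37.0 and 30.0 FPKM in shWDR43 and 79.1 and 47.9 FPKM in shCtl, and its chromosome 4 neighbour Zfp600 had 33.9 and 28.8 FPKM in shWDR43 and 79.6 and 48.6 FPKM in shCtl. The values of Zfp534 and Zfp600 were close in all 4 libraries, and since counting can split reads between near-identical copies, both are uncertain. Zfp330, which encodes a nucleolar protein, had 42.0 and 30.8 FPKM in shWDR43 and 55.0 and 52.0 FPKM in shCtl, or -0.56 ± 0.17 on the log2 scale (SE, adjusted p = 0.03056 by limma). After centring Zfp534 (adjusted p = 0.0921 by limma) and Zfp330 (adjusted p = 0.2112 by limma) did not pass. Zfp207 was more abundant than any of the 279 but Zfp57, and since the table lists it as noncoding it is not one of them.

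Among 8 tested KRAB silencers of imprints and retroelements, the median log2 fold change was -0.61, against -0.39 for all fitted genes. None rose and 5 fell (62.5%, where 42.7% of all fitted genes fell, and 56.08% of those in the fourth bin of level). Besides Zfp57 these were Zfp445, another guardian of imprints, with 13.0 and 11.9 FPKM in shWDR43 and 22.7 and 17.6 FPKM in shCtl, and Zfp819, Zfp932 and Zfp961, which repress endogenous retroviruses. Zfp932 had 7.7 and 6.1 FPKM in shWDR43 and 14.2 and 12.2 FPKM in shCtl, and Zfp961 had 34.1 and 27.3 FPKM in shWDR43 and 48.6 and 43.1 FPKM in shCtl. The other 3 did not pass. Zfp809, which recognises the primer binding site of retroviruses, had 21.4 and 17.8 FPKM in shWDR43 and 20.9 and 19.2 FPKM in shCtl, and its groups overlapped (-0.04 ± 0.15 on the log2 scale, SE). Zfp568, a repressor of a placental Igf2 transcript, had 35.8 and 29.4 FPKM in shWDR43 and 43.2 and 36.7 FPKM in shCtl (-0.29 ± 0.15 on the log2 scale, SE). Zfp708, which binds a class of retroelements, had 2.0 and 1.2 FPKM in shWDR43 and 3.0 and 1.5 FPKM in shCtl, which overlapped (-0.30 ± 0.28 on the log2 scale, SE). After centring Zfp57, Zfp819 and Zfp932 fell (37.5%, where 20.9% of all fitted genes fell), while Zfp568, Zfp708 and Zfp809 were above 0. A ninth listed gene, Zfp982, was not tested.

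Of 9 tested stem cell and promoter factors, 8 fell (88.9%, where 42.7% of all fitted genes fell, and 56.08% of those in the fourth of the 5 bins of level), with a median log2 fold change of -0.73. Zfp281, a partner of the pluripotency network and of the NuRD complex, had 29.1 and 23.7 FPKM in shWDR43 and 54.1 and 44.3 FPKM in shCtl, a log2 fold change of -0.87 ± 0.16 (SE). Zfp423, a SMAD cofactor of BMP signalling, had 9.5 and 9.6 FPKM in shWDR43 and 20.3 and 19.5 FPKM in shCtl, a log2 fold change of -0.99 ± 0.13 (SE). Zfp143, the activator of small nuclear RNA and many mRNA promoters, had 7.0 and 5.4 FPKM in shWDR43 and 11.7 and 11.0 FPKM in shCtl. Its log2 fold change was -0.79 ± 0.16 (SE, adjusted p = 0.007215 by limma). Zfp217, a subunit of corepressor complexes, had 9.0 and 8.8 FPKM in shWDR43 and 15.7 and 15.2 FPKM in shCtl. Zfp322a, an activator of Pou5f1 and Nanog, Zfp462, a regulator of pluripotency and heterochromatin, Zfp296, a NuRD-binding factor, and Zfp706, a regulator of exit from self-renewal, fell, with log2 fold changes between -0.73 and -0.49. Zfp219 did not pass, with 36.9 and 34.6 FPKM in shWDR43 and 42.4 and 48.2 FPKM in shCtl. After centring 4 of the 9 fell (44.4%, where 20.9% of all fitted genes fell), namely Zfp143, Zfp217, Zfp281 and Zfp423. Zfp521 was not tested.

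Of 11 RNA and ribosome factors among the 279 genes, 8 fell, Zfp385a rose, and Zfp346 and Zfp598 did not pass. The share that fell was 72.7%, where 42.7% of all fitted genes fell, and 56.08% of those in the fourth bin of level. The mRNA decay factors Zfp36l2 and Zfp36l1 had 10.5 and 11.3 FPKM and 11.6 and 11.5 FPKM in shWDR43, against 19.8 and 23.1 FPKM and 20.4 and 17.1 FPKM in shCtl. The listed factor outside the 279, Zfp207, of the spindle and of splicing, had 70.9 and 56.9 FPKM in shWDR43 and 129.1 and 118.9 FPKM in shCtl, a log2 fold change of -0.95 ± 0.14 (SE). Zfp593 and Zfp622, whose yeast counterparts take part in maturation of the large ribosomal subunit, fell by 0.51 and 0.58 on the log2 scale. Zfp622 had 22.2 and 21.1 FPKM in shWDR43 and 32.0 and 33.7 FPKM in shCtl. Zfp598, the ubiquitin ligase that senses collided ribosomes, had 20 and 17.9 FPKM in shWDR43 and 23.7 and 24.6 FPKM in shCtl, and its groups did not overlap (adjusted p = 0.07086 by limma). Zfp346, which binds double-stranded RNA, had 7.8 and 6.5 FPKM in shWDR43 and 8.4 and 7.9 FPKM in shCtl, a log2 fold change of -0.17 that was above 0 after centring. After centring Zfp36l2 and Zfp259 fell (18.2%, where 20.9% of all fitted genes fell), as did Zfp207, while Zfp385a rose and 8 did not pass. Zfp36 and Zfp638 were not tested. Of the 3 genes whose products are bound by ZMYND8, Zfp532 fell, while Zfp687 (5.4 and 6.1 FPKM in shWDR43, 7.7 and 7.0 FPKM in shCtl) and Zfp592 (3.4 and 3.9 FPKM in shWDR43, 4.7 and 4.4 FPKM in shCtl) did not pass, and both were above 0 after centring.

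Most genes for the partners of KRAB zinc finger proteins fell. Of 21 tested partner genes 19 fell (90.5%, where 42.7% of all fitted genes fell, and 78.41% of those in the highest bin of level) and none rose, with a median log2 fold change of -0.90. After centring 15 fell (71.4%, where 20.9% of all fitted genes fell). Trim28, the corepressor that KRAB domains bind, had 315.8 and 295.7 FPKM in shWDR43 and 601.3 and 627.2 FPKM in shCtl. Setdb1, the histone methyltransferase it recruits, had 21.3 and 19.6 FPKM in shWDR43 and 36.1 and 32.3 FPKM in shCtl. The HP1 gene Cbx3 had 73.0 and 58.0 FPKM in shWDR43 and 200 and 208.1 FPKM in shCtl, a log2 fold change of -1.63 ± 0.14 (SE). The de novo DNA methyltransferase gene Dnmt3a had 12.7 and 8.3 FPKM in shWDR43 and 36.6 and 33.5 FPKM in shCtl. Atf7ip and Suv39h1 did not pass, and Fam208a was not tested.

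Zfp genes stood on 20 chromosomes, with 65 on chromosome 7, 41 on chromosome 17 and 24 on chromosome 13. Runs of at least 3 Zfp genes with gaps of at most 1 Mb formed 27 clusters that held 162 genes. All 27 clusters had a median log2 fold change below 0, between -1.07 and -0.07, on the spike-in scale. After centring 21 medians were below 0 and 6 above. At least 1 gene fell in 24 clusters, and only the chromosome 7 cluster from Zfp553 to Zfp646 held a gene that rose, Zfp688. Of the clustered genes 36.42% fell, against 49.57% of the 117 genes outside clusters, and the median mean level was 3.19 FPKM in clusters and 6.95 FPKM outside. Clustered genes are not replicates, and neighbours with similar sequences may share reads.

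The largest cluster, 19 genes from Zfp160 to Zfp13 (chr17:21145905-23736454), had a median log2 fold change of -0.43, with 5 falls. Its lowest gene was Zfp948 with 2.3 and 2.2 FPKM in shWDR43 and 7.5 and 4.3 FPKM in shCtl. Its highest was Zfp52 with 2.3 and 1.8 FPKM in shWDR43 and 1.8 and 1.6 FPKM in shCtl, a gene that did not pass. The chromosome 13 cluster of 14 genes from Zfp708 to Zfp273 (chr13:67170334-67927937) had the widest spread. In it Zfp459 fell by 1.98 on the log2 scale, while its neighbour Zfp874a, which did not pass on the spike-in scale, had 4.8 and 2.9 FPKM in shWDR43 and 3.1 and 1.9 FPKM in shCtl. The shWDR43 and shCtl values of Zfp874a overlapped, so its groups had no clear order. Zfp874a was among the 11 rises after centring.

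The 13 genes from Zfp84 to Zfp146 (chr7:30553571-30954746) had a median of -0.39, with falls of Zfp940, Zfp566 and Zfp260. After centring Zfp566 alone of these passed, and Zfp260 did not pass without the intensity trend either (adjusted p = 0.05312 by limma). Zfp566 had 5.2 and 3.9 FPKM in shWDR43 and 12.6 and 8.8 FPKM in shCtl, while Zfp74 in the same cluster had 6.2 and 5.6 FPKM in shWDR43 and 5.5 and 4.5 FPKM in shCtl. In the 8-gene cluster from Zfp180 to Zfp526 (chr7:24866963-26012524) 6 genes fell, where 42.7% of all fitted genes fell. Zfp428 fell most, and Zfp93 and Zfp526 did not pass. After centring Zfp428 alone of the 6 passed. Zfp180 had 3.5 and 3.7 FPKM in shWDR43 and 5.9 and 5.0 FPKM in shCtl, and Zfp111 had 1.2 and 1.1 FPKM in shWDR43 and 2.9 and 2.4 FPKM in shCtl. These 2 genes hold the ZFP143 letters in the promoters printed above, and so does Zfp93, which did not pass. The log2 fold change of Zfp93 was -0.257, and 0.073 after centring. The cluster from Zfp808 to Zfp934 on chromosome 13, with 3 genes, had the lowest median, -1.07.

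**Figure D3:**
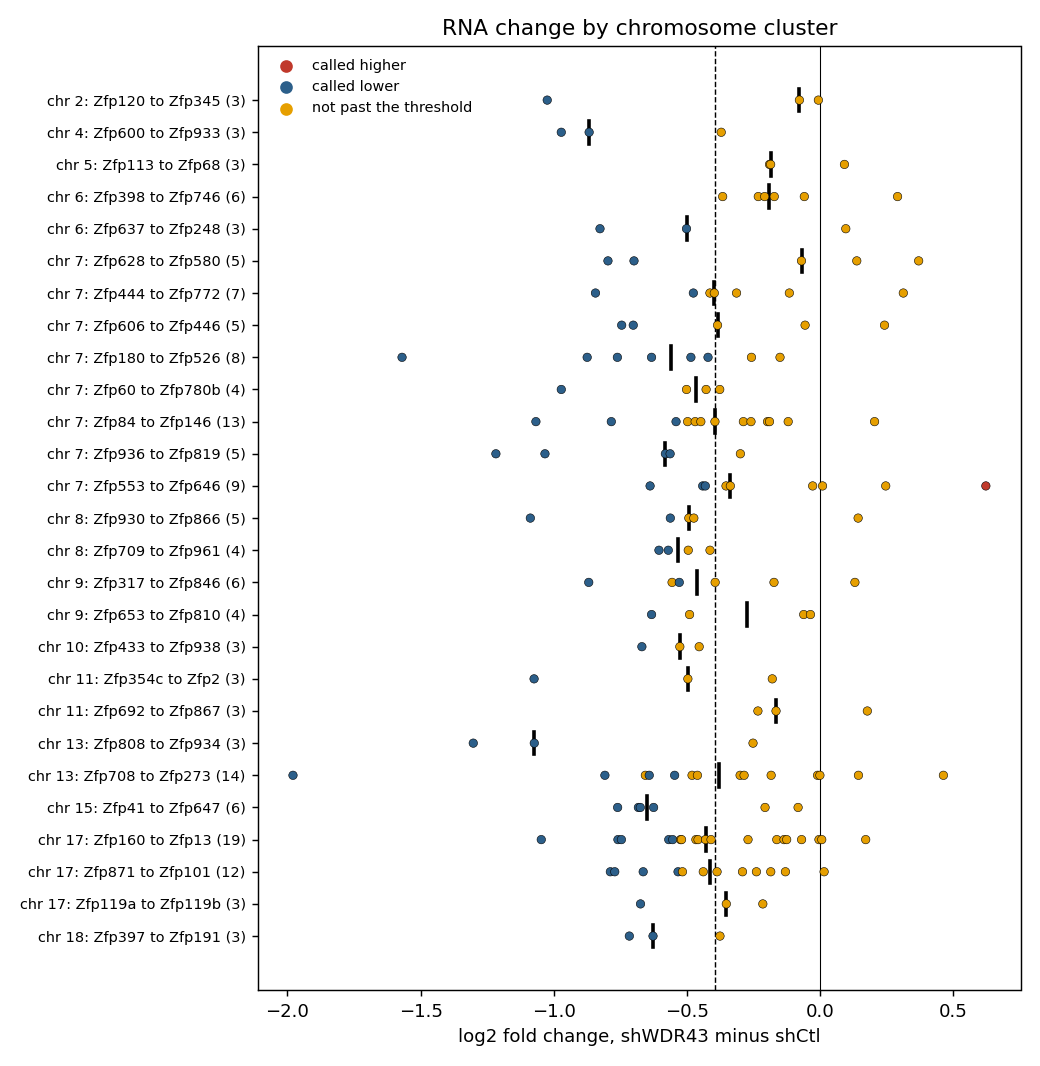
Log2 fold change of shWDR43 minus shCtl for the 162 clustered Zfp genes, 1 row per cluster with its chromosome, first and last gene and number of genes, and a black bar at the cluster median. All 27 bars lie left of 0, and the dashed line marks the median of all fitted genes, -0.39, around which the cluster medians scatter.

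WDR43 peaks stood at most Zfp loci in the DMSO, FB and cFB knock-in lists, and at few or none in the DRB and ActD lists. A peak counted when it overlapped, by at least 1 bp, the 1 kb on either side of a locus end. Such a peak was present at 27 of 279 Zfp loci with DRB (9.68%, against 10.5% of fitted coding loci), at none with ActD (against 0.244%) and at 200 with DMSO (71.68%, against 71.0%). With ActD 2 genes, Zfp791 and Zfp185, had a peak inside the locus. In FB-tagged cells 219 loci (78.49%, against 86.1%) and in the cFB knock-in 218 loci (78.14%, against 84.6%) had an end peak. The lists held 4426 peaks with DRB, 407 with ActD and 31189 with DMSO, so the lists with either inhibitor were shorter as a whole. Depth is unknown, each condition is 1 library, and no test was possible.

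In the DRB list the highest authors' peak scores at Zfp loci were 202.19 at Zfp319, 149.01 at Zfp661 and 92.36 at Zfp423. Zfp319 shares its end with Usb1 within 1 kb, so its peak cannot be assigned to 1 of the pair. Of the 27 genes with a DRB peak 10 fell (37.04%, near the 42.7% of all fitted genes) and Zfp385a rose. The mRNA decay genes Zfp36l1 and Zfp36l2 had an end peak with DRB (scores 82.19 and 61.13) and none in the DMSO list. The same was seen at Zfp553 and Zfp579 (DRB scores 52.84 and 51.32). These scores were below 100, where the lists start at 50, and only 2 Zfp loci reached 100 with DRB. The share of coding loci with this pattern was not counted, and each list is 1 library of unknown depth. Zfp36l2 also had end peaks in FB-tagged cells (score 364.65) and in the cFB knock-in (196.36). In all, 28 Zfp genes have the end of another coding locus within 1 kb.

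The Zfp genes with an end peak in all 3 lists of DMSO, FB and cFB knock-in numbered 159 (65.2% of fitted coding loci had one), and 25 had none in any of the 3. The median log2 fold change was -0.42 for the 159 and -0.55 for the 25. For fitted coding genes the medians were -0.42 with peaks in all 3 lists and -0.28 with none. Of the 25 Zfp genes without peaks 52.0% fell, and of the 159 with peaks 39.62% fell. The coding shares lay in the other order, with 32.44% falls among genes with no peak and 46.97% among those with peaks in all 3 lists. The coding classes differed in level, with a median mean of 3.725 FPKM without peaks and 11.0 FPKM with peaks in all 3 lists. The Zfp classes were closer in level, with 3.675 FPKM and 4.225 FPKM. Falls were more frequent at higher levels, and the classes were not compared at matched level. The difference in order was not tested.

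**Figure D4:**
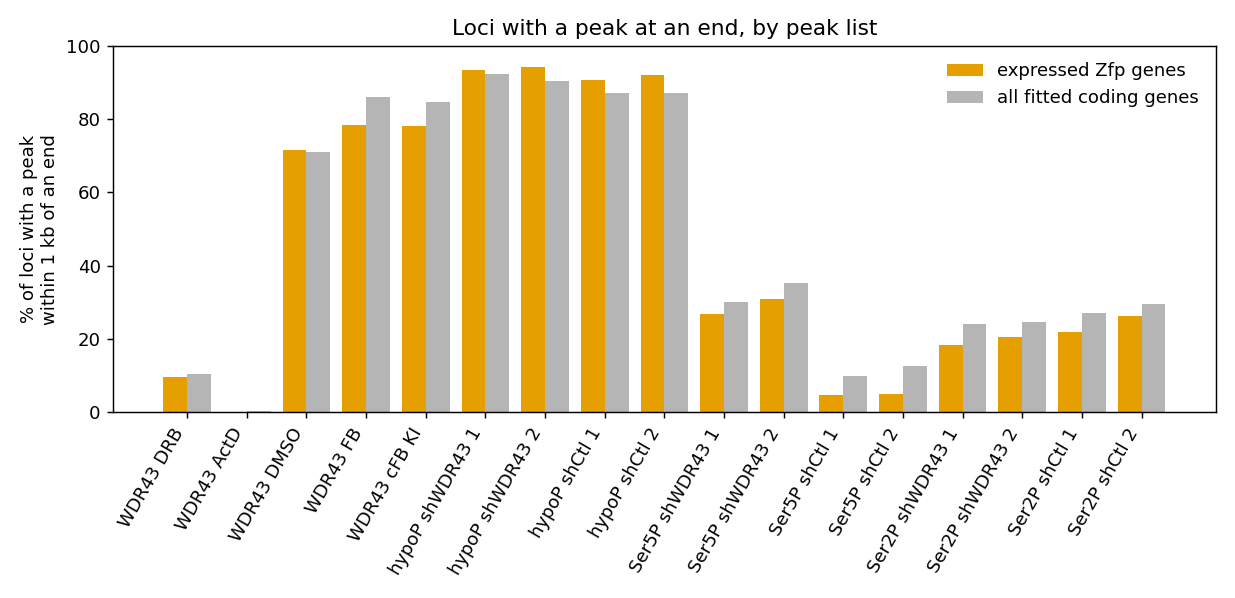
Percentage of Zfp loci (orange) and of fitted coding loci (grey) with a peak within 1 kb of an end, for the 5 WDR43 lists and 12 Pol II lists. Zfp bars stand beside taller grey bars in FB and cFB KI, and Ser5P bars are higher in shWDR43 (75 and 86 Zfp loci) than in shCtl (13 and 14).

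Hypophosphorylated Pol II peaks stood at nearly all Zfp loci in both groups. An end peak was present at 261 and 263 loci in shWDR43 (against 92.3% and 90.3% of coding loci) and at 253 and 257 loci in shCtl (against 87.3% and 87.1%). All 4 lists had one at 244 Zfp loci (87.46%, against 84.77% of coding loci). Ser5P peaks were at 75 and 86 Zfp loci in shWDR43 (against 30.1% and 35.3% of coding loci), and at 13 and 14 in shCtl (against 9.82% and 12.7%). The count was higher in both shWDR43 lists than in both shCtl lists, at the Zfp loci as at coding loci, and these lists held 6535 and 7589 peaks in shWDR43, against 1879 and 2520 in shCtl. Ser2P peaks were at 51 and 57 Zfp loci in shWDR43 (against 24.2% and 24.7%), and at 61 and 73 in shCtl (against 27.2% and 29.4%). Counting only peaks with a score of at least 100 left 21 and 28 Ser2P loci in shWDR43 and 23 and 28 in shCtl, which overlapped. The coding shares were then 10.95% and 11.2% in shWDR43 and 11.51% and 13.19% in shCtl, which did not overlap. With 2 lists per group an exact permutation test could not reach 0.05, so none was run, and list depth is unknown.

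For Ser5P 37 Zfp loci had an end peak in both shWDR43 lists and in neither shCtl list (13.26%, against 11.2% of coding loci), and none had the reverse (0.328% of coding loci did). RNA of 17 of these 37 genes fell (45.9%, near the 42.7% of all fitted genes) and none rose, with a median log2 fold change of -0.41. They include Zfp57, Zfp217, Zfp296, Zfp330, Zfp518b and Zfp532. At Zfp57 the Ser5P scores in shWDR43 were 86.53 and 54.29. For Ser2P 7 loci had an end peak in both shCtl lists only, and 5 of these genes fell in RNA (71.4%, where 42.7% of all fitted genes fell), Zfp57 among them with Ser2P scores of 169.12 and 191.25 in shCtl. The share of coding loci with this pattern was 3.21%. Zfp57 thus had Ser5P end peaks in shWDR43 alone and Ser2P end peaks in shCtl alone, and its end lies within 1 kb of Mog. Only Zfp865 had Ser2P end peaks in both shWDR43 lists and neither shCtl list (against 1.23% of coding loci), with scores of 79.92 and 102.88.

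For hypoP 5 loci, Zfp385a, Zfp874a, Zfp516, Zfp229 and Zfp772, had an end peak in both shWDR43 lists and neither shCtl list (2.45% of coding loci had this pattern). Zfp385a, whose RNA rose, had hypoP scores of 174.12 and 86.56 in shWDR43 and only a peak inside the locus in shCtl. Zfp874a had hypoP scores of 388.12 and 170.46 in shWDR43 and no peak in shCtl. The reverse was seen at Zfp13 and Zfp819 (0.234% of coding loci). Both of these genes fell, where 42.7% of all fitted genes fell. After centring Zfp819 passed and Zfp13 did not (adjusted p = 0.0799 by limma). Zfp819 had hypoP scores of 146.57 and 212.39 in shCtl and no peak in shWDR43, and Zfp13 had 293.0 and 213.66 in shCtl. Zfp13 had a peak at an end or inside in 14 of the 17 lists, none of them DRB or ActD. Its locus thus held a peak inside in at least 1 shWDR43 hypoP list. Scores are the authors' own and rank peaks within a list only. Zfp459 had hypoP end peaks in all 4 lists although its RNA fell most, and Zfp365 likewise in all 4 although its RNA rose most. Zfp518a had an end peak in 16 of the 17 lists, all but ActD, while Zfp72, Zfp280c and Zfp652 had no peak in any list. The RNA of all 4 genes fell, where 42.7% of all fitted genes fell, and a link to the peaks was not tested.

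For 231 Zfp genes the RefSeq strand told the annotated start from the other end. HypoP peaks were at the start of 215 and 218 genes in shWDR43 (93.07% and 94.37%, against 91.41% and 89.64% of coding genes). In shCtl they were at the start of 210 and 212 (90.91% and 91.77%, against 86.85% and 86.52%). At the other end they were at 17 and 11 genes in shWDR43 (against 13.64% and 11.01% of coding genes). In shCtl these were 8 and 11 (against 9.13% and 9.56%). Ser5P peaks were at the start of 59 and 60 genes in shWDR43, against 8 and 11 in shCtl, and the coding shares lay in the same order, 28.68% and 34.06% in shWDR43 against 9.4% and 12.1% in shCtl. Ser2P peaks were at the other end of 27 and 33 genes in shWDR43, against 40 and 49 in shCtl, and at the start of 19 and 17 genes in shWDR43, against 14 in each shCtl list. Both shWDR43 counts were below both shCtl counts at the other end and above them at the start. For fitted coding genes Ser2P peaks were at the other end in 18.49% and 18.93% in shWDR43, against 22.63% and 24.7% in shCtl. At the start the coding shares overlapped between the groups, with 8.97% and 9.15% in shWDR43 and 8.54% and 9.5% in shCtl. WDR43 peaks in DMSO were at the start of 166 genes (71.86%, against 69.67% of coding genes). At the other end they were at 8 (3.46%, against 6.69%).

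**Figure D5:**
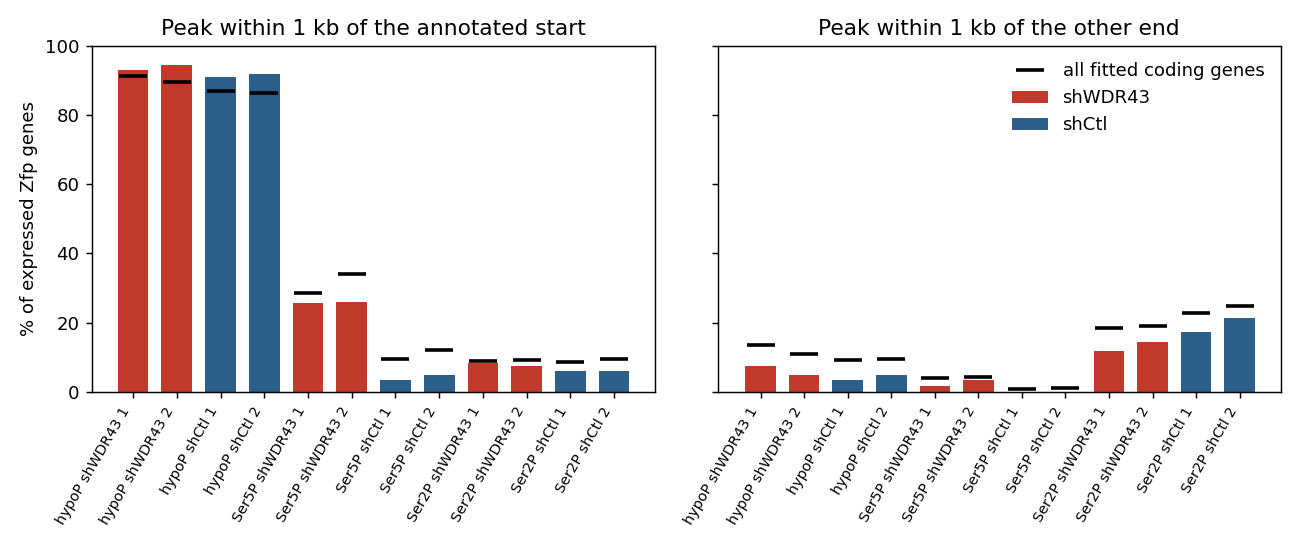
Percentage of the 231 Zfp genes with a RefSeq strand that have a Pol II peak within 1 kb of the annotated start (left panel) or of the other end (right panel), for each shWDR43 list (red) and shCtl list (blue), with a black dash at the percentage of fitted coding genes. HypoP and Ser5P peaks stand mostly at starts, and Ser2P peaks stand at the other end more often than at the start in all 4 lists, where 27 and 33 Zfp genes had one in shWDR43 and 40 and 49 in shCtl.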

How the data were processed

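RNA was compared in 2 shWDR43 and 2 shCtl libraries, and peaks were read from 17 ChIP lists. The authors deposited 1 value per gene and library. FPKM was inferred for these deposited values from Cufflinks, named with TopHat per the submitters' processing notes, and how the values were scaled to the spike-in is not stated in those notes. A signed fold between group means and an unadjusted p-value per gene were deposited too. Each deposited peak list gives positions and a score per peak, at least 50 in every list, on mm9, with reads aligned by Bowtie2 per the submitters' processing notes. Peaks were called per library. No source used here gives the peak caller's version or threshold, and depth is unknown.

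Of the rows 12452 with a mean of at least 1 FPKM were fitted together with limma 3.58.1 in R 4.3.3 on log2(FPKM + 1) with an intensity trend, with Benjamini-Hochberg adjustment over all fitted genes at 0.05. The script was tested on simulated data. P-values measure the spread between 2 libraries per group. Locus starts were read as 0-based and are printed 1-based. Widths of 8990 of 22180 matched accessions equalled the RefSeq gene length under that reading, against 565 otherwise. Motifs and strands came from RefSeq promoters of GRCm38.p6, matched by transcript identifier or, where that failed, by symbol, and no coordinates were converted. Values were handled in Python 3.11.15 with pandas 2.3.3. The genes and lists were chosen with earlier results of these data known. Genes named are the largest called rises and falls, the most and least abundant, the ends of clusters, tested genes of the role lists, and genes with DRB or ActD peaks, and not every such gene is printed. Genes named beside the Pol II patterns and the ZFP143 motif were chosen after their values were seen. Alternatives covered the pseudocount, filter, scaling, trend, replicate block, left-out libraries, cluster gap and peak rule. The bins of level, the split by start and other end, the WDR43 peak classes and the coding promoter background were added after seeing the data.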

Additional observations from a re-analysis of the deposited data

How the results depend on the processing

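With 2 libraries per group and unknown depth, calls depend on the pooled spread and on the spike-in scale. Fitting all 38582 rows left 5 falls and 1 rise by limma, at unadjusted p under 0.05 still 110 and 5. Centring gave 39 falls (13.98%, against 20.93% of all fitted genes), 11 rises (3.94%, against 12.97%) and a median of -0.108 (against -0.0642). By its construction it put genes with small falls above 0, with log2 fold changes for Zfp58 (0.3212), Zfp809 (0.2945), Zfp526 (0.1802), Zfp692 (0.1652), Zfp346 (0.1589), Atf7ip (0.1464), Zfp592 (0.0732), Zfp93 (0.073), Zfp568 (0.0426), Zfp708 (0.0302) and Zfp687 (0.0224). Leaving out a library gave 0 falls and 0 rises by limma in each case, with medians from -0.5118 to -0.3403. Among named genes that did not pass, log2 fold changes then lay on both sides of 0 for Suv39h1 (-0.0536 to 0.1605), Zfp58 (-0.1782 to 0.1606), Zfp809 (-0.1619 to 0.0909) and Zfp708 (-0.6388 to 0.0393). The cause was not tested.

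A pseudocount of 0.1 (116 falls, 5 rises), a filter of 2 FPKM (115 and 5 of 218), and no trend (114 and 5) moved the counts by less than 1.5 times. Including Zfp42 and Zfp352 was run for the median only, which was then -0.438. Same-numbered libraries did not deviate together (correlation 0.0504), so the numbers were not taken as pairs. The replicate block gave 134 falls and 6 rises.

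Peaks with a score of at least 100 left 2 DRB loci (0.72%, against 1.15% of coding loci) and 97 DMSO loci (34.77%, against 41.91%). For Ser5P they left 8 and 17 loci in shWDR43 (against 5.77% and 7.42% of coding loci). In shCtl they left 0 and 0 (against 0.67% and 1.11%). For Ser2P they left 21 and 28 loci in shWDR43 and 23 and 28 in shCtl, so the Ser2P counts of the groups overlapped. With the peak centre in the window, Ser2P library 2 of shWDR43 had 36 loci (12.9%, against 15.14% of coding loci). Both Ser5P libraries held a peak at 48 loci in shWDR43 (17.2%, against 20.01% of coding loci) and 4 in shCtl (1.43%, against 3.51%). A cluster gap of 500 kb or 2 Mb gave 150 and 178 clustered genes. The comparison of genes with and without a KRAB pattern was not run, since protein sequences were not used here.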
